A study of Mus musculus with 14 samples.

Results

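The stage dependence of the Mfsd2a deletion effect was measured as a difference of differences. It is the 2aOKO minus 2afl/fl difference in O4 cells less the same difference in oligodendrocyte precursor cells (OPCs), on the log2 scale of the normalised count plus 1. All 14 libraries of the series entered it, 3 of 2afl/fl and 4 of 2aOKO mice in each sort, and 15565 of 18355 genes had the mean normalised count of at least 10 that was required. The libraries were made from 900 ng of total RNA each, taken from brain suspensions of pups on postnatal day 8. After papain digestion, CD140a microbeads isolated OPCs through the receptor Pdgfra, and immature oligodendrocytes were isolated with O4 microbeads. The 2afl/fl controls carried the Mfsd2a gene flanked by loxP sites and no deletion. The 2aOKO mice carried the same floxed gene and a Cre transgene driven by Pdgfra, which is active in OPCs, so that the O4 cells of these mice inherited a deletion made before the stage at which they were sorted. Pdgfra is also expressed in fibroblasts of the brain's coverings and vessels, and Mfsd2a of endothelial cells was not a target of this Cre.

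Mfsd2a is a transporter in the plasma membrane that carries lysophospholipids, among them those with docosahexaenoic acid, into cells, and it is best known in the endothelium of the blood-brain barrier. OPCs divide, leave the cycle, pass through a committed stage with Enpp6 and then make the lipids and proteins of myelin. Fatty acid synthesis in these cells is under the transcription factor SREBP-1, the product of Srebf1, which polyunsaturated fatty acids restrain. The comparison asks whether a gene responded to the deletion unequally at the precursor and the immature stage.

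No gene passed the test of this difference. With limma and Benjamini-Hochberg adjustment over 15565 genes, 0 genes reached an adjusted p of 0.05, and the smallest adjusted p was 1 after rounding. An unadjusted p under 0.05 was reached by 132 genes (0.848% of those tested), 58 (0.373%) with a higher and 74 (0.475%) with a lower effect in O4 cells than in OPCs, where evenly spread p-values would give 778. The study's own criterion asked for that p together with a log2 change of 0.32 or more in size, and it was met by 117 genes (0.752%), 51 higher and 66 lower. Libraries of the same genotype and number deviated together between the sorts, and a fit with that pairing as a replicate block gave 239 genes (1.54%) at an unadjusted p under 0.05 and again 0 adjusted calls. In the plot of p-values both fits had fewer small p-values than an even spread, so the genes with the smallest p described below are no calls, and intervals that leave out 0 are not adjusted for the number of genes.

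**Figure D1:**
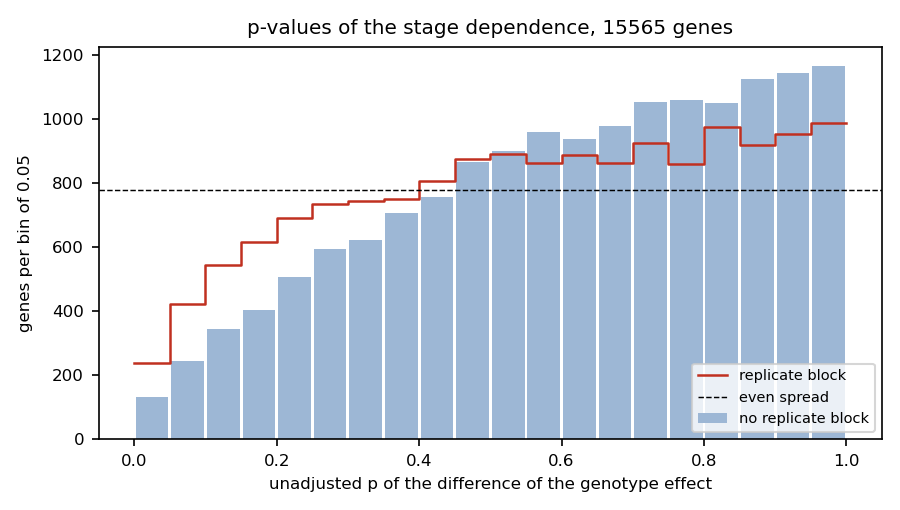
Number of genes (y axis) per bin of 0.05 of the unadjusted p of the difference of the genotype effect (x axis) over 15565 genes. The bars are the fit without and the red line the fit with the replicate block, and the dashed line marks the 778 genes per bin of an even spread. The first bin holds 132 and 239 genes.

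The same libraries separated the 2 stages well. O4 cells against OPCs gave 4128 genes (26.5%) at an adjusted p under 0.05 in 2afl/fl and 5145 (33.1%) in 2aOKO, by the same limma fit. Within a sort, 2aOKO against 2afl/fl gave 0 adjusted calls in OPCs and 0 in O4 cells, with 251 genes (1.61%) and 450 genes (2.89%) at an unadjusted p under 0.05. In O4 cells 9 genes were called when 2afl/fl number 3 was left out of both sorts. The precision of the difference depended on the level of the gene. The median half-width of its 95% interval was 0.29 on the log2 scale for the 7543 genes with a mean of at least 1000, 0.44 for 4294 genes from 200 to 1000, 0.84 for 1860 genes from 50 to 200 and 1.56 for 1868 genes from 10 to 50. For 12064 genes (77.5%) the whole interval lay inside a 2-fold difference in either direction, and for 9007 genes (57.9%) inside 1.5-fold. Differences smaller than such a half-width could not be told from 0 at this depth and number of libraries. The intervals are not adjusted for the number of genes, so the adjusted test needed larger differences still. It called none of the differences, which ran from -4.48 to 3.79.

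The libraries held 34120823 to 41030171 normalised counts, which the size factors make alike, and 16964 to 17662 genes above 0. Divided by the value of 1 read estimated from the low values, 0.774 to 1.19, the totals give an estimated 33000000 to 44100000 counted reads per library. Myelin genes set the sorts far apart, and OPC markers did so less. Summed values of 37 myelin genes were 63495 to 74728 in 2afl/fl OPCs and 68027 to 71084 in 2aOKO OPCs, against 449297 to 1586170 and 680044 to 1243174 in O4 cells. Pdgfra was at 237133 to 312783 in OPCs and still at 112936 to 185959 in O4 cells. The mean over all 24 OPC markers changed less from OPC to O4, by -0.43 to -0.02 in 2afl/fl and -0.36 to -0.19 in 2aOKO. Not all members fell, and Gpr17 rose by 0.56 to 1.11 on the log2 scale. Other cells were present. Markers of ependyma and choroid plexus summed to 117779 to 339420 in 2afl/fl and 142396 to 244013 in 2aOKO OPCs. In O4 cells they summed to 91275 to 365497 and 140499 to 302431. The 2afl/fl O4 libraries differed from each other in stage markers. Mbp, the main protein of compact myelin, was at 375190, 134987 and 589341 in libraries 1, 2 and 3, against 216991 to 426088 in the 4 2aOKO O4 libraries. Library 2 was lowest in Mbp and, at 185959, highest in Pdgfra among them, and library 3 was highest in Mbp. Leaving out library 2 raised the count at an unadjusted p under 0.05 from 132 to 482, and leaving out library 3 raised it to 624 with a smallest adjusted p of 0.364, still with 0 adjusted calls. In bulk samples a change in the share of a cell type and a change in RNA per cell cannot be told apart.

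Mfsd2a itself had a similar effect in both sorts. In OPCs it was at 7585, 7979 and 16343 normalised counts in 2afl/fl libraries 1 to 3 and at 7055, 7188, 3665 and 6843 in 2aOKO libraries 1 to 4. In O4 cells the values were 6762, 7777 and 12885 against 7101, 6536, 3615 and 6596. All 4 2aOKO values were below the 2afl/fl values in OPCs, while in O4 cells 2aOKO library 1 lay above 2afl/fl library 1. In both sorts library 3 was the highest of the controls and library 3 the lowest of the 2aOKO group. The genotype effect was -0.74 on the log2 scale in OPCs and -0.61 in O4 cells, and their difference was 0.13 (SE 0.45, 95% interval -0.83 to 1.1). With the replicate block the SE of this difference was 0.1. From OPC to O4 Mfsd2a changed by -0.17, -0.04 and -0.34 in 2afl/fl and by 0.01, -0.14, -0.02 and -0.05 in 2aOKO. An exact permutation test, two-sided, of the 7 within-number O4 minus OPC differences over 35 splits gave p = 0.171, where the smallest possible was 0.0286. Leaving out single libraries or numbers moved the difference between -0.23 and 0.41, and it was below 0 without 2afl/fl OPC library 3 (-0.23), without 2aOKO OPC library 3 (-0.1) and without 2afl/fl O4 library 1 (-0.06). The files count reads over the whole gene and the deleted exons were not used here, so reads from undeleted exons and from endothelium remain in these values, and their part was not tested.

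**Figure D2:**
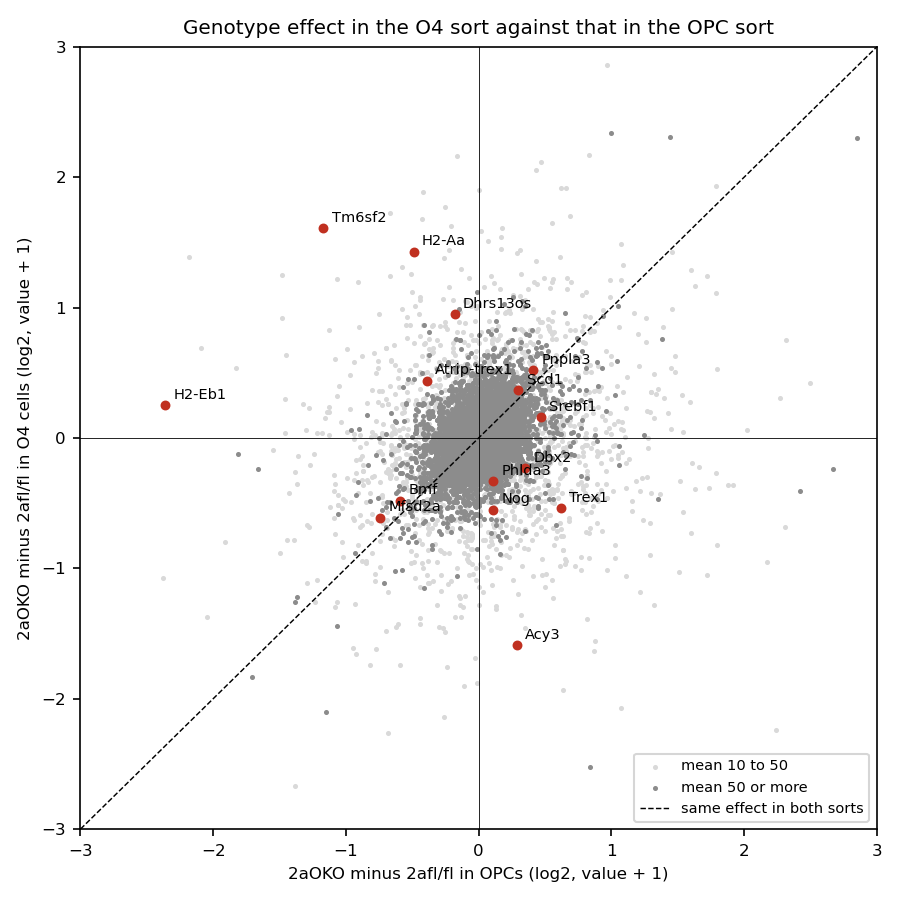
Genotype effect, 2aOKO minus 2afl/fl on log2(value + 1), in OPCs (x axis) and in O4 cells (y axis) for each gene tested, with genes of a mean from 10 to 50 in light grey and of 50 or more in dark grey; 5 genes lie outside the axes. Genes on the dashed line have the same effect in both sorts, as Mfsd2a (-0.74 and -0.61) and Pnpla3 (0.41 and 0.52) nearly do, while H2-Eb1 (-2.36 and 0.25) and Acy3 (0.29 and -1.59) lie far from it.

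Over all genes the effects of the sorts were loosely related. The sign was the same in both sorts for 9769 of 15565 genes (62.8%), and Pearson's r across genes was 0.24, or 0.43 over the 13697 genes with a mean of at least 50. Genes are not independent replicates, and libraries of the same number deviated together between the sorts (r from 0.16 to 0.33), which enters both values. Of the 251 genes with an unadjusted p under 0.05 in OPCs, 193 (76.9%) had the same sign in O4 cells, where their median effect in that direction was 0.13 against 0.48 in the sort that chose them. For the 450 genes chosen in O4 cells, 351 (78%) had the same sign in OPCs, with medians of 0.09 and 0.35. Past an unadjusted p of 0.05 in both sorts were 28 genes (0.18%), all with the same sign, and 0 genes had opposite signs. Of those 28, 12 were higher and 16 lower in 2aOKO.

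Pnpla3, Scd1 and Bmf, which the study named, were among these 28, and since the study named them on these libraries their values are not independent evidence. Pnpla3, a lipase that remodels lipid droplets and a target of SREBP-1 in liver, was at 241, 273 and 268 in 2afl/fl OPCs against 360, 353, 375 and 303 in 2aOKO OPCs, and at 416, 391 and 507 against 610, 638, 753 and 523 in O4 cells. The groups did not overlap in either sort. Its effect was 0.41 in OPCs and 0.52 in O4 cells, with a difference of 0.11 (SE 0.19, 95% interval -0.31 to 0.53). Scd1, the desaturase that makes oleate, had effects of 0.3 and 0.37 and a difference of 0.07 (95% interval -0.3 to 0.44). Bmf, a pro-apoptotic BH3-only protein, was lower by the fit in both sorts, at -0.59 and -0.48, with a difference of 0.1 (95% interval -0.45 to 0.66). Among the other genes of the 28, singled out after their values were seen, Jun (-0.33 and -0.34) and Jund (-0.21 and -0.27), subunits of the AP-1 transcription factor, had nearly equal effects.

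Srebf1 stood otherwise. It was at 2275, 2192 and 1850 in 2afl/fl OPCs against 2768, 2815, 2946 and 3073 in 2aOKO OPCs, and at 2355, 2808 and 1919 against 2763, 2225, 2710 and 2779 in O4 cells. The groups were apart in OPCs and overlapped in O4 cells, where 2afl/fl library 2 was the highest and 2aOKO library 2 the lowest of its group. The genotype effect was 0.47 in OPCs and 0.16 in O4 cells. Their difference was -0.3 (SE 0.17, 95% interval -0.66 to 0.05), and -0.17 without 2afl/fl O4 library 2 and -0.45 without library 3. With the replicate block it passed an unadjusted threshold of 0.05, and without it it did not, and there was no adjusted call in either fit. From OPC to O4 the log2 value changed by 0.05, 0.36 and 0.05 in the 2afl/fl numbers and by 0, -0.34, -0.12 and -0.14 in the 2aOKO numbers. Srebf1 overlaps Rai1 in the annotation.

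Other lipid genes that the study named in OPCs did not all share a direction. Cyb5r1, a reductase of cytochrome b5, was at 138, 144 and 125 in 2afl/fl OPCs against 200, 244, 192 and 309 in 2aOKO OPCs, and the groups overlapped in O4 cells, at 179, 241 and 186 against 252, 218, 124 and 300. Its effects were 0.77 and 0.08, and their difference -0.69 (SE 0.36, 95% interval -1.46 to 0.09), with the same dependence on the replicate block as Srebf1. Hpgds, a prostaglandin D synthase, had effects of 0.75 and 0.02 (difference -0.73, SE 0.41), the ceramide synthase Cers3 1.27 and 0.21 (-1.06, SE 0.7), Tsku, a secreted protein, 0.46 and -0.03 (-0.5, SE 0.3), and the lipogenic regulator Thrsp 0.8 and 0.51 (-0.3, SE 0.51). All 4 intervals reached past 0, and Hpgds passed an unadjusted 0.05 with the replicate block. Acat3, an acetyl-CoA acetyltransferase, was on the other side in both sorts, with effects of -0.69 and -0.49. Its difference was 0.2 (SE 0.38), and -0.01 without 2afl/fl number 2. In OPCs it was at 60.7, 71.2 and 42.5 in 2afl/fl against 38.4, 38.6, 23.7 and 41.8 in 2aOKO. Acat3 overlaps Tcp1 in the annotation. The study describes this gene as upregulated in OPCs by the deletion. The values here ran the opposite way. These genes were named for their value in OPCs, so the effect in the sort used for the choice is not free of it.

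As a list, the 30 genes of fatty acid synthesis and SREBP-1 targets gave no shift of the effect between the sorts. The median difference was -0.02, with 12 genes above and 18 below 0, beside a median of 0 over all genes. The median effect was 0.06 in OPCs and 0.08 in O4 cells. In OPCs 25 and in O4 cells 21 of the 30 effects were above 0, beside 7671 and 7693 of all 15565. Only Tm6sf2 of this list had an unadjusted p under 0.05. Tm6sf2, a membrane protein of lipid export in liver, was at 6.62, 10 and 16.9 in 2afl/fl OPCs and at 2.05, 10.8, 8.05 and 1.03 in 2aOKO OPCs, and at 10.3, 2.87 and 3.56 against 16, 15.3, 21.6 and 15.4 in O4 cells. It lay at the minimum level, with a difference of 2.79 (SE 0.93). The study named Tm6sf2 for its rise in 2aOKO O4 cells, so its O4 values are not free of that choice. Cholesterol synthesis, with 25 genes, had a median effect of 0.13 in OPCs and 0.05 in O4 cells, and 22 of 25 differences were below 0 with a median of -0.09. Without 2afl/fl O4 library 2 the median was -0.03, with 9 of 25 above 0. None of its genes had an unadjusted p under 0.05. The lowest was Nsdhl, a sterol dehydrogenase, at -0.23 (SE 0.17, and 0.09 with the replicate block, where it passed an unadjusted 0.05). The 25 genes of lysophospholipid uptake and phospholipid remodelling and the 25 of sphingolipid and galactolipid synthesis both had a median difference of -0.01.

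**Figure D3:**
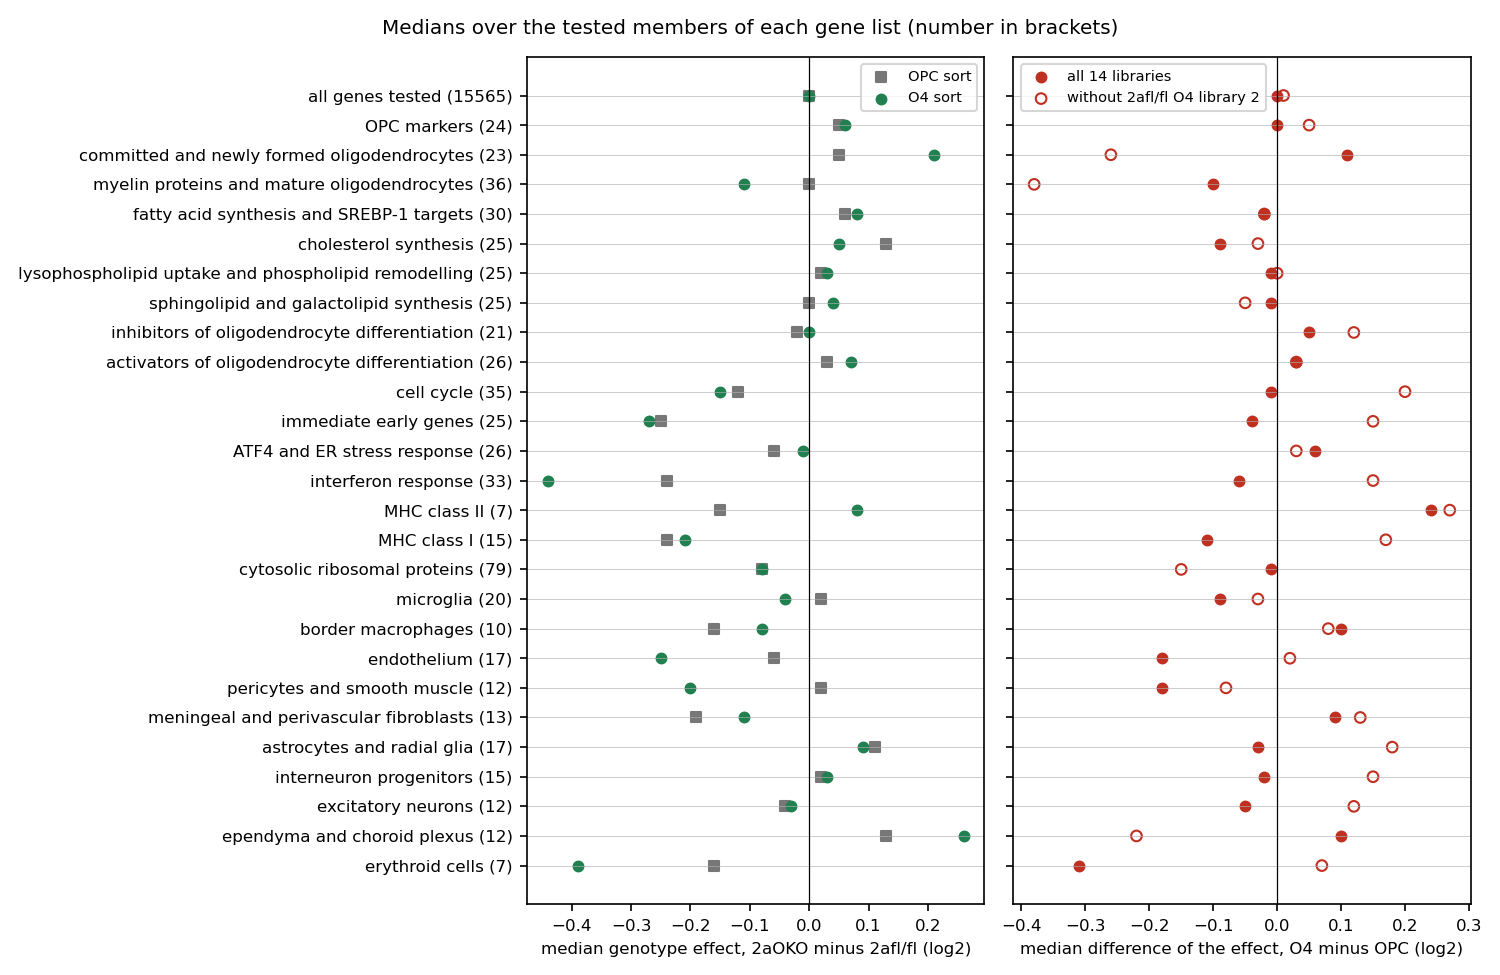
Medians over the tested members of each gene list, with the number tested in brackets, on the log2 scale (x axes). The left panel gives the genotype effect in OPCs (squares) and in O4 cells (circles), and the right panel the difference between the sorts with all 14 libraries (filled) and without 2afl/fl O4 library 2 (open), whose absence moved committed and newly formed oligodendrocytes from 0.11 to -0.26 and the cell cycle from -0.01 to 0.2.

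The lists of maturation turned on single control libraries. Committed and newly formed oligodendrocyte genes had a median difference of 0.11 with 19 of 23 above 0, and without 2afl/fl O4 library 2 the median was -0.26 with 0 above 0, and 0.42 without library 3 of that group. For myelin proteins and mature oligodendrocytes the median was -0.1 with 10 of 36 above 0, and -0.38 and 0.11 without those libraries. The cell cycle list had a median of -0.01 with 16 of 35 above 0, and of 0.2 and -0.24 without them. Immediate early genes, which respond to stimulation and to dissociation, had a median of -0.04, and of 0.15 and -0.37. None of the members of these 4 lists had an unadjusted p under 0.05 in the full fit.

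The rise from OPC to O4 within each number overlapped between the genotypes, in the myelin list only through 2afl/fl number 2. The mean over the committed and newly formed list rose by 3.23, 2.52 and 3.48 on the log2 scale in 2afl/fl numbers 1, 2 and 3, and by 3.12, 3.14, 3.41 and 2.82 in the 2aOKO numbers. The myelin list gave 3.16, 2.56 and 3.47 against 3.08, 2.86, 3.12 and 2.82. The 2aOKO numbers lay between the lowest and the highest 2afl/fl number in both lists, and the lowest was number 2 in both. In the myelin list every 2aOKO rise lay below those of 2afl/fl numbers 1 and 3. Without 2afl/fl number 2 in both sorts the median difference was -0.28 for the myelin list and -0.18 for the committed and newly formed list. Enpp6, a choline phosphodiesterase of newly formed oligodendrocytes, was at 7.28 to 76.6 in 2afl/fl and 35.1 to 108 in 2aOKO OPCs, and at 12585 to 51219 and 27237 to 48428 in O4 cells. Its difference was -0.5 (SE 0.9), and it was 0.47 without 2afl/fl OPC library 2, in which it was lowest. Casr, the calcium-sensing receptor, gave -1.27 (SE 0.96) with OPC values of 0 to 13.4, and -2.03 to -0.27 as single libraries were left out. Enpp6 and Casr were the lowest of the committed and newly formed list, in which 19 of 23 differences were above 0. Its highest were Bmp4 (0.26, SE 0.39) and 9630013A20Rik (0.26, SE 0.45). Ermn, a cytoskeletal protein of late myelination, gave -0.71 (SE 0.56), and -0.16 without 2afl/fl O4 library 3 and -1.39 without number 2. Tnr, the matrix protein tenascin R, gave 0.82 (SE 0.65), and 0.1 without 2afl/fl number 1 and 1.59 without O4 library 3. It was the highest of the 24 OPC markers, whose median difference was 0, with 11 above and 13 below 0. Of the cell cycle genes, Gmnn, the inhibitor of replication licensing, gave -0.43 (SE 0.31) and Ccne2, a cyclin of the entry into S phase, 0.4 (SE 0.36).

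**Figure D4:**
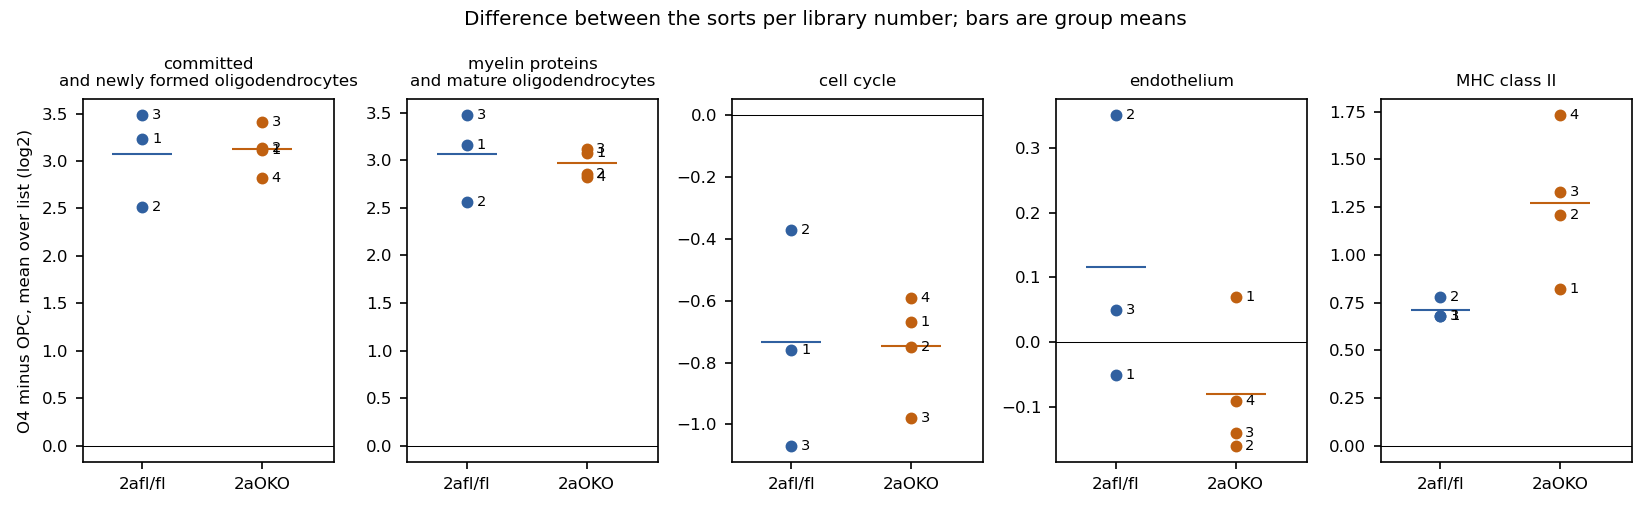
Mean over the genes of a list of the O4 minus OPC difference on log2(value + 1) (y axes) for each library number, with 3 numbers in 2afl/fl and 4 in 2aOKO and bars at the group means. In the 2 maturation lists 2afl/fl number 2 is lowest (2.52 and 2.56), and in the cell cycle list it is nearest to 0 (-0.37). In MHC class II all 2aOKO numbers (0.82 to 1.73) lie above the 2afl/fl numbers (0.68 to 0.78). That mean is over 7 genes, 3 of them with a difference below 0, and the study named H2-Aa and H2-Ab1 on these libraries.

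Of the late oligodendrocyte genes that the study named in O4 cells, 7 of 8 had a difference below 0, with a median of -0.38. The choice fixed the value in O4 cells. The effect in OPCs, with a median of -0.08, is not wholly free of it, since libraries of the same number deviated together between the sorts. It was above 0 for 2 of the 8 genes and lowest for Galnt6, at -0.7 in OPCs against -0.53 in O4 cells. Acy3, aminoacylase 3, had the lowest difference. It was at 29.3, 20.9 and 20 in 2afl/fl OPCs and 29.7, 35.5, 21.5 and 28.9 in 2aOKO OPCs, and at 57.2, 54.5 and 30.9 against 14.8, 15.3, 19.3 and 10.2 in O4 cells. Groups overlapped in OPCs and were apart in O4 cells, with effects of 0.29 and -1.59 and a difference of -1.88 (SE 0.49, 95% interval -2.92 to -0.84). It rose from OPC to O4 in all 3 2afl/fl numbers, by 0.94, 1.34 and 0.6, and the 4 2aOKO numbers changed by -0.95, -1.17, -0.14 and -1.41. Mal, a lipid raft protein of myelin, gave -0.55 (SE 0.43) and rested on 2afl/fl O4 library 3, at 3203 against 1170 and 1351 in the other two, and without number 3 in both sorts the difference was 0.13. Apod, an apolipoprotein, gave -0.35 (SE 0.21).

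Phlda3, an inhibitor of Akt signalling induced by p53, had the smallest p among genes with a mean of at least 50. It is on chromosome 1 of mm39, from 135693823 to 135696873 on the plus strand, and the study named it too. It was at 802, 943 and 949 in 2afl/fl OPCs and 953, 1020, 910 and 974 in 2aOKO OPCs, and at 1122, 1129 and 1190 against 1029, 826, 884 and 922 in O4 cells. The groups were apart only in O4 cells, and the O4 minus OPC change was 0.48, 0.26 and 0.33 in 2afl/fl and 0.11, -0.3, -0.04 and -0.08 in 2aOKO. The effects were 0.11 and -0.33, and their difference -0.44 (SE 0.13, 95% interval -0.71 to -0.16).

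Dbx2 and Nog were also among the 10 genes with the smallest p and a lower effect in O4 cells. Dbx2, a homeobox factor of neural progenitors (chromosome 15, 95521444 to 95552653, minus strand), was at 270, 249 and 342 against 323, 397, 393 and 346 in OPCs, and at 245, 269 and 261 against 201, 207, 236 and 241 in O4 cells. The 2aOKO group was apart from the controls, and lower, in O4 cells, and overlapped them in OPCs. The effects were 0.35 and -0.23 and the difference -0.58 (SE 0.2, 95% interval -1 to -0.15). Nog, which encodes noggin, a secreted antagonist of the BMPs that hold back oligodendrocyte differentiation (chromosome 11, 89191464 to 89193386, minus strand), was at 412, 399 and 488 against 469, 472, 469 and 449 in OPCs, and at 366, 440 and 302 against 251, 245, 181 and 345 in O4 cells. In O4 cells only 2aOKO library 4 lay above the lowest control, and the difference was -0.66 (SE 0.26, 95% interval -1.21 to -0.11).

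The other genes of the lowest 10 were Tmem268 (-0.57), Papln (-0.9), a matrix glycoprotein, Mrps27 (-0.36), of the small mitochondrial ribosome subunit, Cryzl2 (-0.63), Trex1 (-1.15), Rcan1 (-0.24), an inhibitor of calcineurin, and Tceal5 (-0.36). Rcan1 changed in opposite directions in the genotypes, by 0.13, 0.05 and 0.03 from OPC to O4 in 2afl/fl and by -0.15, -0.28, -0.11 and -0.14 in 2aOKO. Over all genes the 7 within-number changes did not overlap between genotypes for 489 genes (3.14%), with 2aOKO higher in 210 (1.35%) and lower in 279 (1.79%). Of the 10 lowest genes 6 did not overlap, and these had been chosen by the same contrast.

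The 10 genes with the smallest p and a higher effect in O4 cells than in OPCs were led by Atrip-trex1 (0.83, SE 0.27), Dhrs13os (1.13, SE 0.36) and Bccip (0.31, SE 0.1). Bccip, a partner of BRCA2 and p21 in DNA repair, was at 1463, 1665 and 1572 against 1338, 1358, 1295 and 1367 in OPCs, where the groups were apart. In O4 cells it was at 1301, 1248 and 1397 against 1432, 1344, 1441 and 1354, where they overlapped. Several of these genes share their place with another, and how reads over both were counted is not given in the sources used here. Atrip-trex1 is a readthrough transcript that spans Trex1 on the same strand of chromosome 9, and the pair had differences of opposite sign (0.83 and -1.15), and both values are uncertain. Dhrs13os overlaps Dhrs13 and Phf12, Bccip overlaps Dhx32 and Uros, and Gm15559 (0.97) overlaps Pus1. The rest were Nhlrc3 (0.58), Mrpl22 (0.72), of the large mitochondrial ribosome subunit, the kinases Stk33 (0.72) and Dyrk2 (0.31), the small Maf factor Mafg (0.33) and the carboxypeptidase Agbl3 (0.58). The 2 mitochondrial ribosome genes thus stood on opposite sides.

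**Figure D5:**
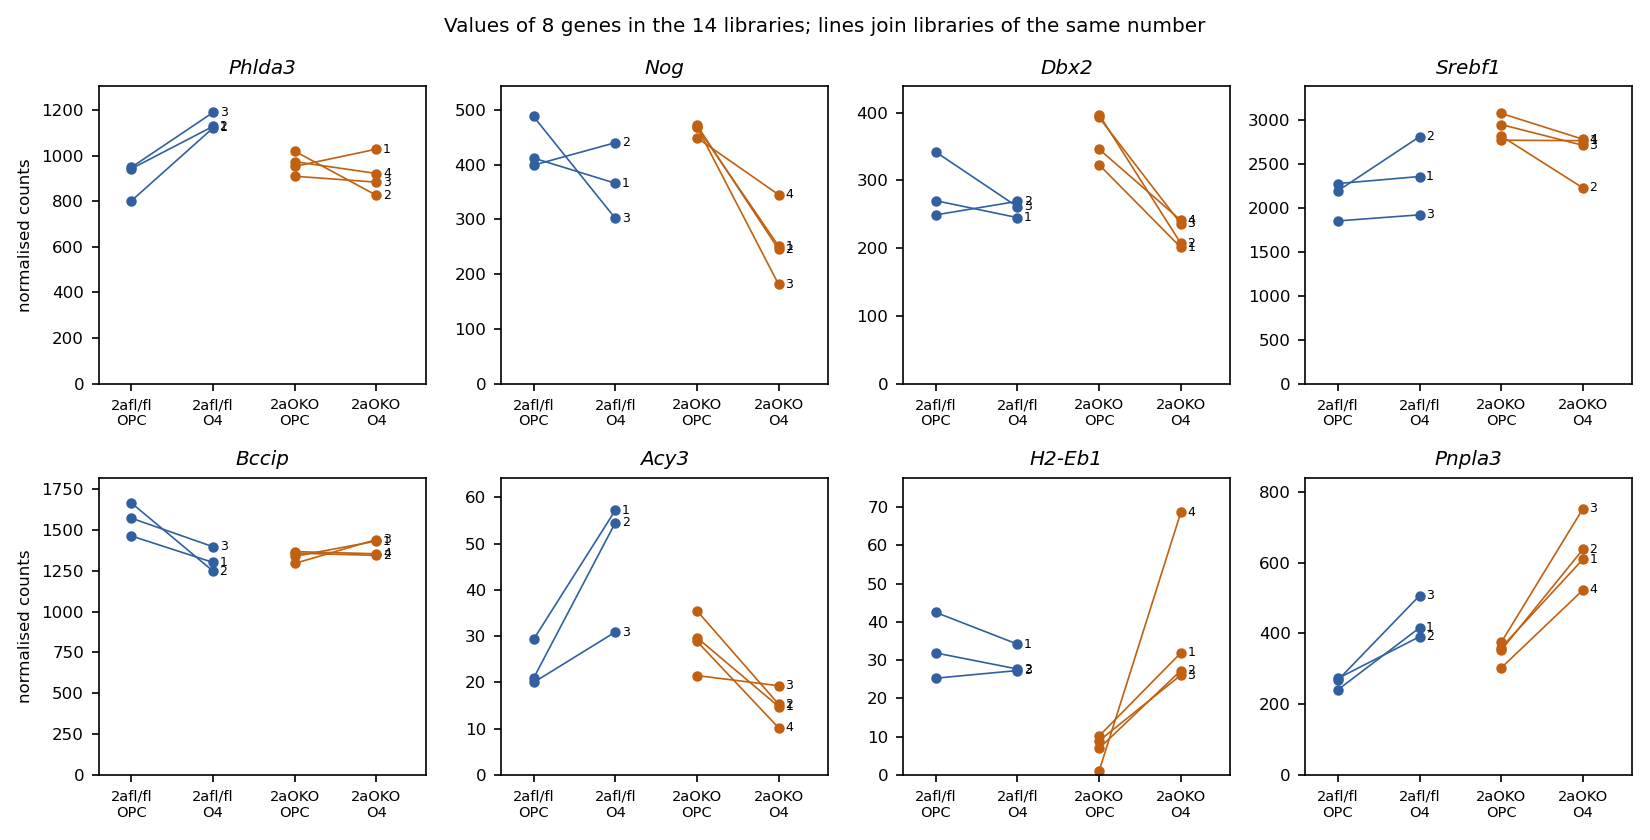
Normalised counts (y axes, from 0) of 8 genes in the 4 groups, with lines that join the OPC and O4 library of the same number, labelled beside the O4 value. Phlda3 and Acy3 rise in all 3 2afl/fl numbers and do not in most 2aOKO numbers, Srebf1 and Bccip are apart by genotype in OPCs, and Pnpla3 is apart in both sorts.

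H2-Eb1 and H2-Aa had differences above 0 with intervals that left out 0. They belong to MHC class II, whose products present peptides on antigen-presenting cells and which is low in both sorts. The 33 interferon response genes ran from -2.44 to 1.59 with a median of -0.06, and of 0.15 without 2afl/fl O4 library 2. H2-Eb1 was at 42.5, 31.9 and 25.3 in 2afl/fl OPCs against 10.2, 6.95, 8.94 and 1.03 in 2aOKO OPCs, and at 34.2, 27.7 and 27.3 against 31.9, 27.3, 26.1 and 68.6 in O4 cells. It was apart, and lower in 2aOKO, only in OPCs, with a difference of 2.61 (SE 0.77, 95% interval 0.97 to 4.25). H2-Aa overlapped between the genotypes in both sorts, and its 3 highest values were in 2aOKO O4 cells. It was at 18, 7.28 and 6.32 against 5.11, 3.86, 11.6 and 7.23 in OPCs, and at 36.7, 25.8 and 9.5 against 25.1, 104, 89.8 and 48.1 in O4 cells, with a difference of 1.92 (SE 0.84, 95% interval 0.13 to 3.7). H2-Ab1, the partner of H2-Aa, followed 2aOKO libraries 2 and 3 in O4 cells (515 and 754, against 150 and 195 in libraries 1 and 4 and 131 to 202 in 2afl/fl), with a difference of 1.13 (SE 0.65). The study named H2-Aa and H2-Ab1 for their rise in 2aOKO O4 cells of these libraries, so their O4 values are not free of that choice.

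The class II list did not move as one. Of 7 tested members 4 had a higher and 3 a lower difference, with a median of 0.24 and a range of -0.99 to 2.61, and the invariant chain gene Cd74 gave -0.5 and the class II transactivator Ciita -0.52. Class II sums were 447 to 491 and 370 to 425 in OPCs of 2afl/fl and 2aOKO, and 551 to 757 and 638 to 1183 in O4 cells. Markers of microglia summed to 6124 to 8546 and 6853 to 7808 in OPCs, and to 11752 to 18020 and 12065 to 18539 in O4 cells, and those of border macrophages to 4610 to 5636 and 5056 to 5572, and to 5870 to 6737 and 5542 to 6641. All 20 and all 10 markers were above 0 in each group, and their part in the class II values was not tested. The median difference was -0.09 for microglia and 0.1 for border macrophages.

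The promoters of H2-Aa and H2-Eb1, the class II genes with the largest differences, are shown because such genes share a Y box, a CCAAT element bound by NF-Y. The 150 bases before the start site come from RefSeq on GRCm38.p6, an earlier build than that of the counts, and 2 of the 3 class II genes H2-Aa, H2-Ab1 and H2-Eb1 were in that table. H2-Aa lies at chr17:34287824-34287973 on the minus strand and H2-Eb1 at chr17:34305717-34305866 on the plus strand. Capitals mark CTGATTGG, searched on both strands.
H2-Aa: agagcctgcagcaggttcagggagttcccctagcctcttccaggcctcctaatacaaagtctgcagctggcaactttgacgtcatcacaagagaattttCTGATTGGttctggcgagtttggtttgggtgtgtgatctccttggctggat
H2-Eb1: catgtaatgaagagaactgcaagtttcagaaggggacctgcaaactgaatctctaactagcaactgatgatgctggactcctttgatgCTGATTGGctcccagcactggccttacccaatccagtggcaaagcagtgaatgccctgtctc
The motif begins 51 bases before the start site in H2-Aa and 62 in H2-Eb1, and 1039 of 32851 promoter windows of the same length (3.16%) hold it. The match is a description of the sequence only.

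H2-T10 and Gm8801 on chromosome 17 were high in 2 library numbers of 2aOKO in both sorts. H2-T10, a nonclassical class I gene, was at 191 and 108 in 2aOKO OPC libraries 2 and 3 and at 159 and 196 in the O4 libraries of the same numbers, against 17.1 to 37.2 in 2aOKO numbers 1 and 4 and 3.56 to 47.3 in 2afl/fl, over both sorts. Gm8801 was at 342 and 222, and at 292 and 314, against 1.15 to 10.5 in all others. From OPC to O4 H2-T10 changed by -1.05, -0.96 and -2.06 in the 2afl/fl numbers and by 0, -0.27, 0.85 and -0.64 in the 2aOKO numbers, without overlap. Its difference was 1.34 (SE 1.32, and 0.49 with the replicate block, where it passed an unadjusted 0.05), and 0.64 without 2afl/fl O4 library 3. The study named H2-T10 too for its rise in 2aOKO O4 cells, so its O4 values are not free of that choice. The difference of Gm8801 was -0.55 (SE 2.49, and 0.73 with the replicate block), with a 95% interval from -5.86 to 4.76 without the block. The noncoding 1190005I06Rik had the highest difference of the genes the study named, 3.79 (SE 1.63), and 1.99 without 2afl/fl number 1 and 6.3 without number 2. Its values of 82.3, 0.00456 and 16.9 in 2afl/fl OPCs and below 4 in 2afl/fl O4 cells include fractions of reads, and it overlaps Gm27021.

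Vessel genes, listed as markers of cells outside the oligodendrocyte lineage, had lower differences in step. Among them Cspg4 of the pericyte list (-0.04, mean 60300) is also on the OPC marker list. All 17 endothelial genes and all 12 of pericytes and smooth muscle were below 0, both with a median of -0.18, beside 7623 of 15565 genes below 0 overall. Without 2afl/fl O4 library 2 the medians were 0.02 and -0.08, with 11 of 17 and 5 of 12 above 0. In that library the mean of the endothelial genes was 0.35 higher than in the OPC library of its number, against -0.05 and 0.05 in the other two 2afl/fl numbers and -0.16 to 0.07 in 2aOKO. Emcn, an endothelial sialomucin, gave -0.61 (SE 0.45), and the pericyte potassium channel Kcnj8 -0.57 (SE 0.58, and 0.17 with the replicate block). Kcnj8 rose by 0.14, 0.48 and 0.05 from OPC to O4 in the 2afl/fl numbers and changed by -0.37, -0.37, -0.28 and -0.37 in the 2aOKO numbers, and library 3 was the lowest of each of the 4 groups.

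Among the remaining lists, the 79 cytosolic ribosomal proteins had a median difference of -0.01, and of -0.15 without 2afl/fl O4 library 2. Rpl39 was the only member of that list with an unadjusted p under 0.05 (0.52, SE 0.24). The 26 genes of the ATF4 and ER stress response had a median of 0.06, with 22 above 0, and of 0.03 with 15 above 0 without that library. The highest was the stress cytokine Gdf15 (1.33, SE 0.63), which gave 0.71 without 2afl/fl O4 library 3. Regulators that the study named in OPCs also had wide intervals. Bdnf, a neurotrophin, was at 58.6, 47.3 and 39 against 19.4, 23.9, 34 and 33.1 in OPCs and overlapped in O4 cells, with a difference of 1.18 (SE 0.55). Nkx6-1, a homeobox factor, gave 0.68 (SE 0.7), and Id2, an inhibitor of differentiation, 0.11 (SE 0.19). Trem2, a microglial receptor, gave -0.82 (SE 0.49), and Slc17a7, a glutamate transporter of excitatory neurons, -0.99 (SE 0.43), the only neuronal marker of 12 tested in its list with an unadjusted p under 0.05.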

How the data were processed

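Bulk RNA of OPC and O4 sorts was sequenced in 14 libraries, grouped by their labels. The authors aligned paired reads to mm39 with STAR 2.7.8a, counted them on RefSeq genes and normalised them in Partek Flow 10. The deposited signal values are counts divided by a median-ratio size factor and include fractions of a read, and how reads over several genes were counted is not given in the sources used here. They are not scaled to gene length. Low values were within 0.05 of whole multiples of 1 read for 93.2% to 94.9%, so whole reads were not recovered and no count model was fitted. The authors' tables of fold changes and p-values were not used. How the kit treated strand is not given in the sources used here.

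Values were log2(value + 1). The 2790 genes under a mean of 10 were left out. A mean for each group was fitted with an intensity trend in limma 3.58.1 (R 4.3.3), with two-sided tests and Benjamini-Hochberg adjustment. The script was tested on simulated data. Within a genotype, deviations of same-numbered OPC and O4 libraries correlated in all 7 pairs (r from 0.16 to 0.33, at most 0.01 with other numbers), which pairs them. The pairing comes from these data, and the labels give only the number. Across genotypes 5 of 6 pairs correlated best with their own number, but r ran from 0.07 to 0.3 and was not over 0.1 in every pair, so the numbers were not taken to pair there. The study gives n per genotype, and the labels tie no library to an animal, so p-values measure the spread between these libraries. Promoter sequences are from RefSeq on GRCm38.p6.

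Genes were named by a rule: Mfsd2a, the 10 with the smallest p in each direction at a mean of at least 50, the genes the study named, and extremes of each list. The counts over 57 named genes below cover only a part of these, and the rule did not set that part. Members and lists were chosen with earlier results of these data known. Alternatives were the pseudocount (0.5 and 5), the filter, the scaling, the trend, array weights, 3 forms of the replicate block and leaving out each library or number.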

Additional observations from a re-analysis of the deposited data

Results flagged for a closer look

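In 10 of 114 sets of 4 2aOKO values 1 library stood apart by Dixon's criterion, which chance alone meets in about 1 of 20. Mfsd2a was low in 2aOKO OPC library 3 (3665, against 6843 to 7188 in the others) and in O4 library 3 (3615, against 6536 to 7101). In the O4 sort, library 2 was low for Dyrk2 (646, others 747 to 761) and Srebf1 (2225, others 2710 to 2779), library 3 was high for Tm6sf2 (21.6, others 15.3 to 16) and low for Apod (1021, others 1334 to 1382), and library 4 was low for Ccne2 (167, others 207 to 208). In the OPC sort, library 4 was low for Nog (449, others 469 to 472), library 1 for Cers3 (13.3, others 29.3 to 32) and library 3 for Acat3 (23.7, others 38.4 to 41.8).

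For 4 of the 57 named genes every 2afl/fl number went up and every 2aOKO number went down from OPC to O4. They were Acy3 (difference -1.88), Kcnj8 (-0.57), Srebf1 (-0.3) and Rcan1 (-0.24). Over all 15565 genes tested, 36 (0.231%) had this pattern and 16 (0.103%) its reverse. None of the 4 passed the adjusted limma test of the difference. The named genes were picked by this contrast, by the study on these libraries or as list extremes. Their share with the pattern can therefore not be set against that of all genes. For Srebf1 the fall in 2aOKO number 1 was only from 2768 to 2763, a log2 change that rounds to 0.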

How the results depend on the processing

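No adjusted call of the difference between the sorts appeared under any of the 32 alternatives. Its count at the study's threshold, 117, was 249 with no filter on low values, 52 among genes with a mean of at least 50, 186 without the intensity trend, 77 with array weights, 203 with the replicate block of genotype by number and 221 with that block as a random effect, and 98 to 430 when a library or number was left out, highest without 2afl/fl O4 library 3. For the genotype effect in OPCs the count of 163 became 304, 91 and 268 with no filter, the higher filter and array weights, 304 with the replicate block across genotypes, and 120 to 496 on leaving out libraries. In O4 cells 248 became 377, 155 and 126, 469 with that block, and 206 to 1154, highest without 2afl/fl number 3, where 0 to 9 adjusted calls were made. The cause was not tested, apart from the number of genes under the filters.

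Mfsd2a ranged from -0.23 to 0.41 on leaving out libraries or numbers. Of 56 other named genes 48 kept their direction under all 32 alternatives, and 8 changed it, each only when a library or number was left out: Scd1 (-0.05 to 0.26), Pnpla3 (0 to 0.22), Mal (-0.98 to 0.13), Gm8801 (-1.62 to 0.8), Bmf (-0.03 to 0.25), Id2 (-0.08 to 0.28), Acat3 (-0.01 to 0.41) and Enpp6 (-1.14 to 0.47). Many of these genes were picked by this contrast or as list extremes. A kept direction therefore partly follows from the choice, and no share over all genes was computed to set beside it. Leaving out a library or number moved the difference by over 1.5 times for 37 of all 57 named genes. The replicate block changed no adjusted call. With it 8 named genes passed an unadjusted 0.05 that they had missed (Srebf1, Cyb5r1, Hpgds, H2-T10, Gdf15, Nsdhl, Kcnj8 and Trem2), and 0 lost it. Where an OPC or O4 control group was left with 2 libraries, its spread was taken from the fit over all groups. Depth limits genes near the minimum mean of 10, where a few reads set the value.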
